A study of Mus musculus with 10 samples.

Results

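The genes of glutamate receptors and of the postsynaptic scaffold were examined for REST binding in the mouse cortex. The set was a list of 38 genes, taken by symbol from the 26182 curated RefSeq genes of mm10, and a peak was assigned to a gene when it overlapped the gene body or lay within 5 kb of a start site. By this rule the 38 genes held 13 of the 3006 peaks in the WT list and 33 of the 5077 peaks in the 3xTg list. The question was which of these genes carried a REST peak in each genotype, and where in the gene.

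REST ChIP-seq had been performed on frozen cortex of female WT and 3xTg mice aged 11 months, from 4 replicate pools of 4 cortices for either genotype and with 1 input library for each. The 3xTg model of Alzheimer's disease carries the human mutant transgenes APPSwe and tauP301L together with a knock-in mutation of PS1, and the WT animals carry none of them. For each genotype 1 peak list combines the 4 replicates, so no value of a peak has a replicate spread, no difference between genotypes was tested, and every comparison is a description of 2 lists. The lists hold no read depth, and the part of depth in the number of peaks was not tested. The tissue was bulk cortex, so that a change in binding per cell and a change in the number of cells that bind cannot be told apart.

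REST is a zinc finger repressor that silences neuronal genes outside the nervous system and is also present in neurons. It binds a long bipartite element, RE1, whose left and right half-sites are separated by a short spacer. The glutamate receptors comprise ionotropic receptors of the AMPA, kainate, NMDA and delta families and G protein-coupled metabotropic receptors. Below the membrane these receptors are held by stacked scaffold proteins of the Dlg, Dlgap, Shank and Homer families, which together with the kinase CaMKII make up much of the postsynaptic density.

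Peaks that held an RE1 site were found at 5 of the 38 genes. A site was taken as the half-sites CAGCACC and GGACAGC with 2 bases between them, on either strand, with at most 2 mismatches over the 14 fixed letters. These sites were Grin1 at chr2:25319017-25319032, Grid1 at chr14:34867446-34867461, Gria2 at chr3:80802991-80803006 and chr3:80802883-80802898, Dlgap3 at chr4:127173715-127173730 and chr4:127173667-127173682, and Camk2b at chr11:6016535-6016550. They are shown with 5 bases on either side because they are the sequences under the peaks that match the element by this rule. Capitals mark letters equal to the motif, and each site reads 5′ to 3′ on the strand that carries it.
Grin1: cgcttCAGCACCtcGGACAGCacccg
Grid1: caggtCAGCACCtcGGACAGCgccac
Gria2, nearer the summit: gattttAGCACCgcGGACAGCgcttt
Gria2, nearer the start site: gcgccCcGCACCccGcACAGCcctgg
Dlgap3, farther from the start site: cctttCAGtACCcgGGACAGCtccaa
Dlgap3, nearer the start site: tcattCAGCACtggGGACAGttccca
Camk2b: cttttCAGCACtaaGGACAGCagctg
The sites of Grin1 and Grid1 matched all 14 letters and shared the same 2 spacer bases. The better sites of Gria2, Dlgap3 and Camk2b had 1 mismatch, and the second sites of Gria2 and Dlgap3 had 2.

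The set held a peak more often than the average gene, but its genes are long, and long genes in general held peaks more often too. In the WT list 9 of the 38 genes (23.7%) had a peak, beside 9.27% of all curated RefSeq genes. In the 3xTg list 15 genes (39.5%) had one, beside 14.2% of all genes. Peaks of both lists were found at 7 genes (18.4%), beside 7.75% of all genes. The median length of the 38 genes was 167 kb, against 13.5 kb for all genes, and 23 of them reached 100 kb. Among all genes of 100 kb or more 24.9% had a WT peak, 39.2% a 3xTg peak and 23.2% peaks of both lists. The 23 long genes of the set stood at 6 (26.1%) with a WT peak, 12 (52.2%) with a 3xTg peak and 5 (21.7%) with both, which for WT and for both lists is close to the background of long genes. For 3xTg the share was above it in the class from 100 to 300 kb, with 5 of 9 genes against 34.4%, and below it in the class of 300 kb or more, with 7 of 14 genes against 56.1%. Of the 15 genes under 100 kb 3 (20%) had a WT peak and 3 a 3xTg peak, beside 7.66% and 11.6% of all genes of that length. By narrower class these were 1 of 6 genes of 10 to 30 kb in either list, beside 8.36% (WT) and 12.1% (3xTg) of all genes. From 30 to 100 kb they were 2 of 8 genes in either list, beside 11.6% and 18.5%.

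**Figure D1:**
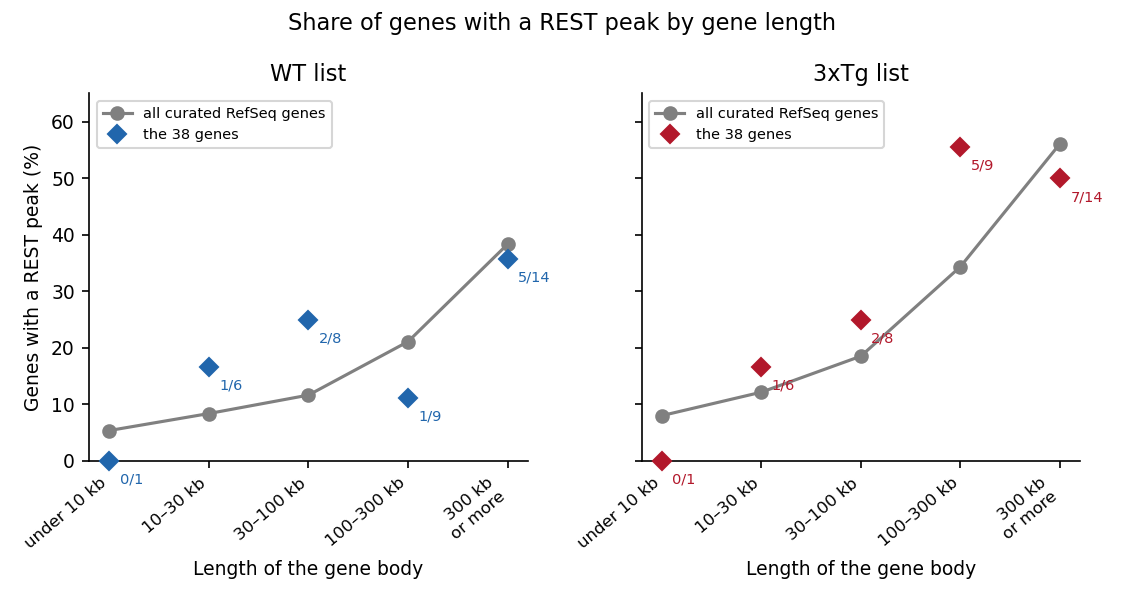
Percentage of genes with at least 1 REST peak (y axis) by length of the gene body (x axis), in the WT list (left) and the 3xTg list (right). Grey circles are all 26182 curated RefSeq genes and diamonds are the 38 glutamate receptor and scaffold genes, with their counts beside them. The background rises from 5.35% to 38.3% in WT and from 7.98% to 56.1% in 3xTg, and the diamonds, which rest on 1 to 14 genes each, lie on both sides of it.

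The peaks were unevenly spread over the gene families. All 4 Dlgap genes, which encode the scaffold proteins that join the Dlg and Shank layers, had a 3xTg peak and 3 of them a WT peak. Of the 7 NMDA receptor genes 2 had a WT peak and 3 a 3xTg peak, and of the 3 AMPA receptor genes 1 and 2. None of the 5 kainate receptor genes (Grik1 to Grik5) had a peak in either list. Of the 7 metabotropic receptor genes 1 had a WT peak and 1 other a 3xTg peak. Of the Dlg family Dlg2 was called in both lists, of the Shank family Shank1 in WT and Shank2 in 3xTg, while 1 Homer gene and 1 of the CaMKII genes were called in 3xTg, and the delta receptor gene Grid1 was called in 3xTg. Taken by layer, 4 of the 23 receptor genes had a WT peak and 7 a 3xTg peak, against 5 and 7 of the 13 scaffold genes. The families hold 1 to 7 genes each and differ in length. Of the 23 receptor genes 15 reach 100 kb, and of the 13 scaffold genes 8. So do 3 of the 4 Dlgap, 4 of the 5 kainate and 0 of the 2 CaMKII genes. Of all genes 9.27% had a WT peak and 14.2% a 3xTg peak. Of all genes of 100 kb or more these were 24.9% and 39.2%. The differences between the families were not tested.

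The 21 genes without a peak in either list were Gria4, the 5 kainate receptor genes, Grin2c, Grin2d, Grin3a, Grin3b, Grm2, Grm4, Grm5, Grm6, Grm7, Dlg1, Dlg4, Shank3, Homer2, Homer3 and Camk2a. Of all 26182 genes 22080 had no peak in either list. Of genes of 100 kb or more, 10 of 23 in the set had none, beside 1437 of all 2432. Among the 21 genes the start site nearest to a peak was that of Grin2c, an NMDA receptor subunit gene. It lay 9070 bases from a 3xTg peak and 9377 bases from a WT peak, outside the 5 kb limit. The body of Grin3b, another NMDA receptor subunit gene, lay nearer, 7113 bases from a 3xTg peak and 7749 bases from a WT peak. Its start site was 13579 and 14215 bases away. The start site farthest from a 3xTg peak was that of Grin3a, at 1201645 bases. Just inside the limit was Shank1, which encodes the scaffold layer that binds Homer: its WT peak ended 4671 bases before the start site, overlapped the neighbouring gene Clec11a, and had its summit 1629 bases from the Clec11a start site.

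Few peaks of the set lay at start sites, but genes with such a peak were not rarer than among all genes. In the WT list 3 of the 38 genes (7.89%) had a peak within 1 kb of a start site, namely Grin1, Gria2 and Dlgap3, beside 5.31% of all genes. In the 3xTg list 6 genes (15.8%) did, the same 3 together with Gria1, Shank2 and Dlg2, beside 7.81% of all genes. Counted over peaks, 3 of 13 in WT (23.1%) and 6 of 33 in 3xTg (18.2%) were this close to a start of their gene, whereas 38.4% of all WT peaks and 33.7% of all 3xTg peaks lay that close to a curated start site of any gene. Over all peaks of the set, start site peaks included, 10 of 13 WT summits (76.9%) and 29 of 33 3xTg summits (87.9%) lay in an intron. The assignment of peaks by gene body favours such positions, and the intronic share over the whole lists is not given here.

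**Figure D2:**
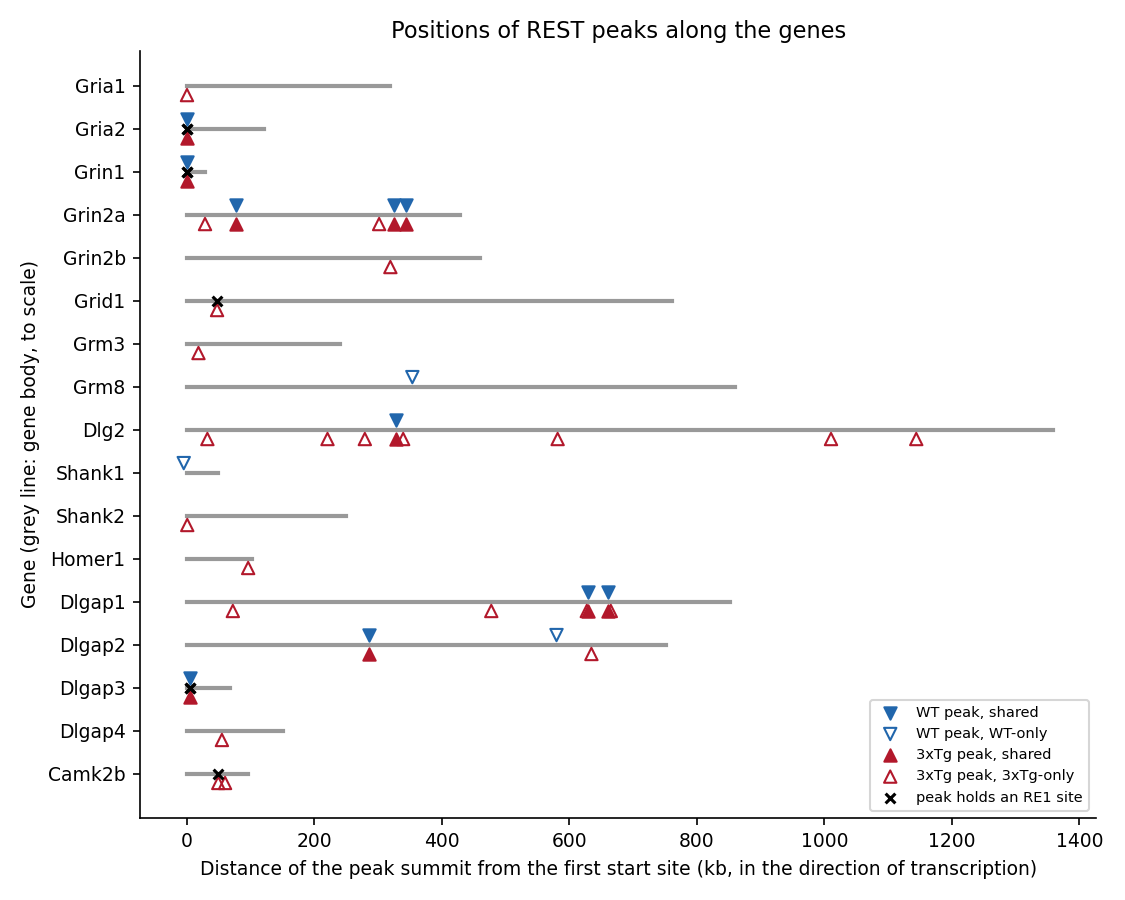
Position of every REST peak summit along the 17 genes with a peak, as distance from the first start site in kb in the direction of transcription (x axis), with 1 row per gene and the gene body as a grey line to scale. Triangles above the line are WT peaks and below it 3xTg peaks, filled when a peak of the other list overlaps and open when none does, and crosses mark peaks that hold an RE1 site. At Gria2, Grin1 and Dlgap3 the peaks of both lists sit within 5 kb of the first start site, and the 8 peaks of Dlg2 lie between 32.1 and 1144 kb in its body of 1358 kb.

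Grin1 encodes the obligatory subunit of NMDA receptors. Its peak lay over the start site in both lists, at chr2:25318240-25319538 in WT and chr2:25318076-25319709 in 3xTg. Fold enrichment, the ratio of reads at the summit to the local background, was 8.28 in WT, at rank 1023 of 3006, and 9.85 in 3xTg, at rank 3274 of 5077. The peak thus stood in the upper part of the WT list and in the lower part of the 3xTg list. The exact RE1 site lay in the 5′ untranslated exon, 155 bases downstream of the start site, 47 bases from the WT summit and 69 bases from the 3xTg summit. The WT peak was rich in CpG, at 64.7 per kb, against a median of 18.7 per kb over the whole WT list. Of that list 38.4% lay within 1 kb of a start site, and the 3 WT start site peaks of the set had a median of 53.75 per kb.

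Gria2 encodes the AMPA receptor subunit whose edited form makes the channel nearly impermeable to calcium. Its peak covered the start site and the upstream region in both lists, at chr3:80802554-80803353 in WT and chr3:80800369-80803442 in 3xTg. The fold enrichment was 6.43 in WT, at rank 2278, and 11.7 in 3xTg, at rank 2097 of the longer list. The summits were 27 bases apart, while the 3xTg interval was 3074 bases wide against 800 in WT. Both sites lay upstream of the start, at 156 and 48 bases, and the better one was 15 bases from the WT summit and 42 bases from the 3xTg summit. The 200 bases before the start site, chr3:80802836-80803035 on the plus strand, are shown because they hold both sites in 1 stretch. Gria2 is transcribed from the minus strand, so that the start site follows the left end. Capitals mark letters equal to the motif.
Gria2 upstream: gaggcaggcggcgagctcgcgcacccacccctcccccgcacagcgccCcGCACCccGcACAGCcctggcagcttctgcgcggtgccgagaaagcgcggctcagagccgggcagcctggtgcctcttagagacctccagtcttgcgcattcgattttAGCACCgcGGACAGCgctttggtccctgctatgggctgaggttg
This stretch had a GC content of 68.5% and 19 CpG dinucleotides. RefSeq promoter sequences of this genome, each 300 bases long and mostly upstream of the start, could be matched to 26 genes of the set. Of their 39 promoters 1 (2.56%), that of Gria2, held a site, beside 0.773% of all 32851 promoters.

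Dlgap3, the third gene with a start site peak in both lists, encodes a Dlg-binding scaffold protein. Its peak lay in the first intron, at chr4:127173479-127174057 in WT and chr4:127173270-127174395 in 3xTg. The fold enrichment was 9.54 at rank 675 in WT and 12.6 at rank 1692 in 3xTg. The site with 1 mismatch was 835 bases downstream of the nearest start site and 7 bases from the WT summit, and the site with 2 mismatches was 787 bases downstream and 2 bases from the 3xTg summit. All 3 start site peaks of the set in the WT list therefore held an RE1 site. The share over all start site peaks of that list is not given here, so this count has no background beside it.

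The other start site peaks, at Gria1, Shank2 and Dlg2, were found in the 3xTg list alone and held no RE1 site. Gria1 encodes another AMPA receptor subunit, and its peak at chr11:57010646-57012919 had a fold enrichment of 11.4 (rank 2207 of 5077) with the summit in the 5′ untranslated exon, 165 bases after the start. The nearest WT peak was 220491 bases away. Shank2 encodes a scaffold protein of the Shank layer, and its peak at chr7:144175352-144176673 had a fold enrichment of 9.02 (rank 4298) with the summit 562 bases inside the first intron. Dlg2 encodes a membrane-associated guanylate kinase that anchors NMDA receptors, and its peak at chr7:92234610-92236346 had a fold enrichment of 10.4 (rank 2905), 91 bases from the start of a short transcript that begins 1144 kb downstream of the first start site. The CpG content of these 3 peaks was 17.2, 34.8 and 17.3 per kb, against a median of 14.9 per kb over the 3xTg list. Of that list 33.7% lay within 1 kb of a start site, and the 6 3xTg start site peaks of the set had a median of 26.0 per kb.

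The 5 highest 3xTg peaks of the set were intronic and held no RE1 site. The highest fold enrichment in 3xTg was found in intron 6 of Dlgap1, a scaffold gene of 852 kb, at chr17:70598446-70599449, with 28.1 (rank 175 of 5077). The WT peak at chr17:70598642-70599285 had 12.1 (rank 347 of 3006). The next peak lay in intron 3 of Grin2a, which encodes the NMDA receptor subunit that prevails in the adult cortex, at chr16:9918856-9919906 with 25.9 (rank 224) in 3xTg and at chr16:9919102-9919720 with 12.7 (rank 307) in WT. In intron 1 of Dlg2 the peak reached 17.1 (rank 740) in 3xTg, at chr7:91417792-91418571, and 9.27 (rank 730) in WT, at chr7:91418013-91418393. A second Grin2a peak in intron 10 (chr16:9652254-9653592) and a Dlgap2 peak in intron 2 (chr8:14381635-14382788) both had 14.3 in 3xTg, with 8.13 and 7.56 in WT. In WT the 5 highest peaks of the set were those of Grin2a and Dlgap1, followed by Dlgap3, Dlg2 and Grin1, of which the peaks of Dlgap3 and Grin1 held an RE1 site. The peaks of Grin2a, Dlgap1 and Dlg2 were thus among the top of the set in both lists.

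**Figure D3:**
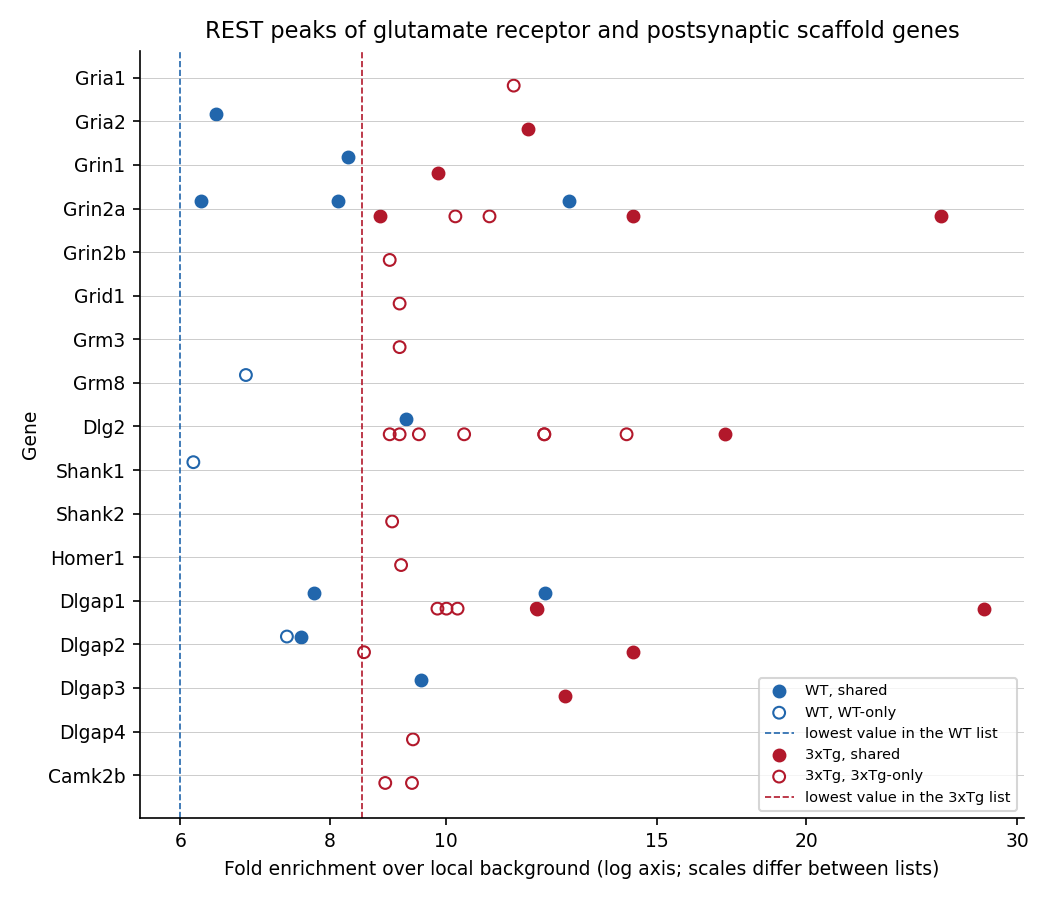
Fold enrichment over the local background (x axis, log scale) of all 13 WT peaks (blue) and 33 3xTg peaks (red) of the 17 genes with a peak, 1 row per gene. Filled circles are peaks with an overlapping peak in the other list and open circles are not, and the dashed lines mark the lowest value in each list, 6.0 in WT and 8.50 in 3xTg. The scales differ between the lists; 2 peaks of Dlg2 coincide at 12.1, and a shared and a 3xTg-only peak of Dlgap1 coincide at 11.9.

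The sequences under the summits of Dlgap1 and Dlg2 are shown because the second is a tandem repeat and the first is not. Each is the 151 bases around the 3xTg summit on the plus strand, at chr17:70598956-70599106 for Dlgap1 and chr7:91418138-91418288 for Dlg2. Both lie outside exons.
Dlgap1: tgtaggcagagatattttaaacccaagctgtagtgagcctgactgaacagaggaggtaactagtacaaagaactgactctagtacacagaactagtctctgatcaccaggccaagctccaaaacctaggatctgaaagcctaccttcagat
Dlg2: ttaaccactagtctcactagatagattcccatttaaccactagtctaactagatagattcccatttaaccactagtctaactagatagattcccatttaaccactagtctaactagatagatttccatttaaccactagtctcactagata
The repetition was measured as a self-match, the largest share of letters in the window equal to the letter 2 to 60 bases further on. In 3xTg this share was 97.5% for Dlg2, at a shift of 32 bases, and 93.4% for Grin2a, whereas Dlgap1, at 35.7%, lay near the median of 36.3% for all 3xTg peaks. The WT summits gave 98.3% for Dlg2, 89.0% for Grin2a and 34.8% for Dlgap1. The repeats were thus present under both lists' summits.

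A self-match of at least 60% was found in 2 of the 13 WT peaks (15.4%) and 4 of the 33 3xTg peaks (12.1%) of the set. The 4 were the peaks of Dlg2 and Grin2a described above, a weaker 3xTg-only peak of Grin2a in intron 3 (88.4%, fold enrichment 10.9) and a 3xTg-only peak of Camk2b (68.0%). In the whole lists 6.25% of WT peaks and 5.63% of 3xTg peaks reached this share, against 1.87% and 1.70% of windows placed 10 kb downstream. Among the 500 peaks of highest fold enrichment the shares were 15.2% in WT and 15.6% in 3xTg. The measure was chosen after the sequences had been seen, and the part of such repeats in the enrichment was not tested.

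**Figure D4:**
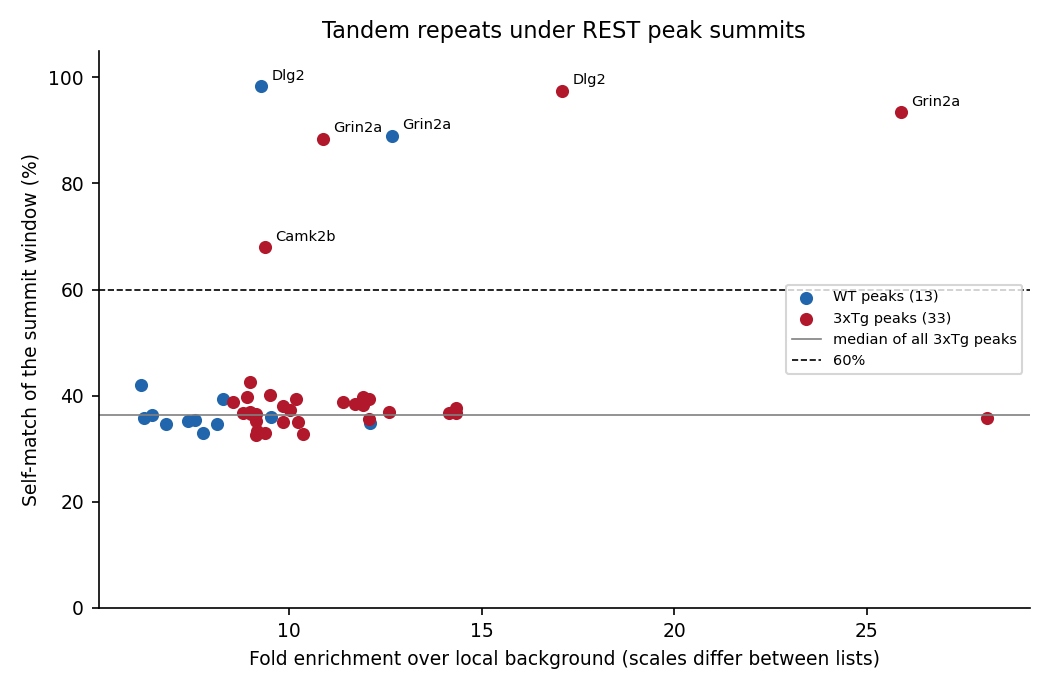
Self-match of the 151 bases around the summit in percent (y axis) against fold enrichment (x axis) for the 13 WT peaks (blue) and 33 3xTg peaks (red) of the set. The solid line is the median of all 3xTg peaks, 36.3%, and the dashed line is 60%. The 6 labelled peaks, 2 in WT and 4 in 3xTg, lie above 60%, and the strongest peak, that of Dlgap1 at 28.1, lies near the median.

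Most of the 3xTg peaks fell in 3 genes. Dlg2 had 8, Dlgap1 had 6 and Grin2a had 5, which together make 19 of the 33, against 6 of the 13 WT peaks. Across all curated RefSeq genes 5 genes had 8 or more 3xTg peaks, 16 had 6 or more and 26 had 5 or more. Per length of gene body, the long genes of the set had 2.7 peaks per Mb in 3xTg and 0.931 per Mb in WT, beside 2.61 and 1.35 per Mb for all genes of 100 kb or more. The pooled density of the long genes was thus near the background in 3xTg and below it in WT. Taken alone, Dlg2, Dlgap1 and Grin2a stood at 5.89, 7.04 and 11.7 per Mb in 3xTg and at 0.736, 2.35 and 7.01 per Mb in WT. These 3 were picked as the genes with most peaks, whereas 12 of the 23 long genes had any 3xTg peak.

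The 8 Dlg2 summits lay between 32.1 and 1144 kb from the first start site of this gene of 1358 kb, with 5 of them in intron 1 within the first 339 kb. The WT list held 1 of them, the tandem repeat in intron 1. Besides this shared peak, 5 of the 3xTg peaks were in introns 1 and 2, 1 in intron 12 and 1 at the start of the short transcript. The highest of the 7 3xTg-only peaks had a fold enrichment of 14.2 (chr7:91429604-91430638), and a pair of others had 12.1 (chr7:91311051-91311872 and chr7:92100923-92101853). These 3 were the highest 3xTg-only peaks of the entire set. The nearest WT peak was 11211 bases from the first, 106141 bases from the second and 682530 bases from the last. A 3xTg-only peak in intron 2, at a fold enrichment of 9.15, had its summit 70 bases from a start site of Dlg2 in the GENCODE annotation, although the nearest start site of Dlg2 in RefSeq was 389972 bases away.

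The Dlgap1 peaks were grouped. Of the 6 3xTg peaks 4 lay in intron 6 within a stretch of 38.6 kb, including both shared peaks, and the others in introns 1 and 4. The second shared peak had a fold enrichment of 7.75 in WT and 11.9 in 3xTg. The 3xTg-only peaks nearest to a WT peak of the whole set were found here, at 1809 and 2879 bases. At Dlgap2, a related scaffold gene of 752 kb, the shared peak in intron 2 had its summit 205 bases (WT) and 260 bases (3xTg) from a GENCODE start site of Dlgap2. Dlgap2 also had a WT-only peak in intron 3 and a 3xTg-only peak in intron 5, with fold enrichments of 7.37 and 8.54, separated by 54192 bases. Dlgap4 had a single 3xTg-only peak in intron 2, at 9.39.

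Grin2a had 3 WT peaks, each overlapped by a 3xTg peak. In order of distance from the start site these were 12.7, 6.24 and 8.13 in WT and 25.9, 8.80 and 14.3 in 3xTg. The 3xTg list added peaks in intron 3 (10.9) and intron 5 (10.2). Grin2b, the gene of the NMDA receptor subunit that prevails in early life, had a single 3xTg-only peak in intron 5 with a fold enrichment of 8.98 (rank 4447), close to the lowest values of the list. Of the metabotropic receptors, which signal through G proteins, Grm3 had a 3xTg-only peak in intron 1 with 9.15 (rank 4178), and Grm8 had a WT-only peak in intron 3 with 6.81 (rank 1901). Homer1, whose product links metabotropic receptors to Shank, had a 3xTg-only peak in intron 8 with 9.17 (rank 4080). These 4 single peaks held no RE1 site.

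Grid1 and Camk2b had RE1 sites under 3xTg-only peaks far from any start site. Grid1 encodes a delta family receptor that acts in synapse formation, and its peak in intron 2 (chr14:34867295-34867628) had a fold enrichment of 9.15 (rank 4129 of 5077). The exact site was 21 bases from the summit and 47.3 kb downstream of the start site. The nearest WT peak was 534388 bases away. Camk2b encodes the beta subunit of CaMKII, the kinase that acts in long-term potentiation, and its peak in intron 2 (chr11:6016192-6016734) had a fold enrichment of 9.37 (rank 3840), with the site 40 bases from the summit. The window of 151 bases around this summit, chr11:6016427-6016577 on the plus strand, is shown because the site stands beside a dinucleotide repeat. Capitals mark letters equal to the motif.
Camk2b: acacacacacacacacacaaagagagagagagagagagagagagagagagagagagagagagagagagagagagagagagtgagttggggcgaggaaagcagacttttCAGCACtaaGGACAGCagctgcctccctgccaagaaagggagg
A second 3xTg-only peak of Camk2b, in intron 3 with a fold enrichment of 8.90, held no site. Repeats masked in the genome covered 81.6% of this peak, and it held 65 CpG dinucleotides. Camk2a, the gene of the alpha subunit, had no peak.

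By number of peaks, RE1 sites occurred in 3 of 13 in WT (23.1%) and 5 of 33 in 3xTg (15.2%), beside 7.02% of all WT peaks and 5.99% of all 3xTg peaks. Windows of the same width 10 kb downstream held a site in 0.898% of cases in WT and 1.60% in 3xTg, and those of the set in 0 of 13 and 1 of 33 cases. Over 1 kb from the start sites 0 of 10 WT peaks and 2 of 27 3xTg peaks of the set held a site, beside 3.39% and 2.73% of the peaks at that distance inside all genes of 100 kb or more.

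Most RE1 sites in these genes were not under a peak. The set held 6 exact sites over its gene bodies and start site regions, of which 1 (Grin1) was under a WT peak and 2 (Grin1 and Grid1) under a 3xTg peak. Across the genome 22.4% of the 290 exact sites were under a WT peak and 25.5% under a 3xTg peak. The exact sites outside any peak were in introns of Grin2a at chr16:9853132-9853147, Shank1 at chr7:44335804-44335819, Dlgap2 at chr8:14102716-14102731 and Camk2a, and the sequences of the first 3 are shown for comparison with those of Grin1 and Grid1.
Grin2a, no peak: gtttcCAGCACCcaGGACAGCtctca
Shank1, no peak: ggctcCAGCACCgcGGACAGCtccag
Dlgap2, no peak: tcctaCAGCACCaaGGACAGCaaatg
These sites matched all 14 letters, as did those of Grin1 and Grid1. Their nearest peaks of either list were 65709 bases away for Grin2a, 30211 for Shank1 and 29280 for Dlgap2. Of the 26 sites with 1 mismatch in the set 2 were under a WT peak and 3 under a 3xTg peak, beside 5.08% and 5.97% of the 2144 such sites in the genome. Dlgap2 had such a site 579 bases upstream of its start and Shank1 had one 911 bases downstream, neither under a peak.

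Between the genotypes, the WT peaks of the set were mostly found again in 3xTg, while most 3xTg peaks had no WT partner. A 3xTg peak overlapped 10 of the 13 peaks of the WT list (76.9%), beside 83.3% in the whole WT list. In the other direction 10 of 33 (30.3%) had a WT partner, beside 49.0% in the whole 3xTg list, and 23 were 3xTg-only. By gene, Gria1, Grin2b, Grid1, Grm3, Shank2, Homer1, Dlgap4 and Camk2b were called in 3xTg alone and Grm8 and Shank1 in WT alone. These were 8 and 2 of the 38 genes, beside 1676 and 396 of all 26182 genes. Among the 23 genes of 100 kb or more they were 7 and 1, beside 389 and 42 of all 2432. At Dlg2, Dlgap1, Dlgap2 and Grin2a the 3xTg-only peaks came in addition to a shared one. No 3xTg-only peak of the set had a WT peak within 1 kb. This excess of 3xTg-only peaks was smaller in lists of equal length, with the 3006 3xTg peaks of highest score kept. Of the set 9 peaks were then shared, 7 were 3xTg-only and 4 were WT-only, so that most 3xTg peaks had a partner. The cut leaves out the 3xTg peaks of lowest score, and the share over the whole lists at this length is not given here.

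Most of the peaks found in 1 list alone were in the lower part of that list, with 6 of the 23 3xTg-only peaks and 1 of the 3 WT-only peaks above the middle of the list. The 23 3xTg-only peaks had fold enrichments of 8.54 to 14.2 with a median of 9.49, of which 13 were under 10, while the 10 shared 3xTg peaks had a median of 13.5. The lowest value in the whole 3xTg list was 8.50. The 3 WT-only peaks were those of Shank1 (6.15), Grm8 (6.81) and Dlgap2 (7.37), all under the lowest value of the 3xTg list. The median of the 10 shared WT peaks of the set, 8.21, and that of the whole WT list, 7.28, also lay under this value. The scales of the lists were also not alike: of all 2504 overlapping pairs 99.5% had the higher fold enrichment in 3xTg, by a median of 1.70 times. The 10 pairs of the set were higher in 3xTg by 1.19 times (Grin1) to 2.32 times (Dlgap1), with a median of 1.79.

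**Figure D5:**
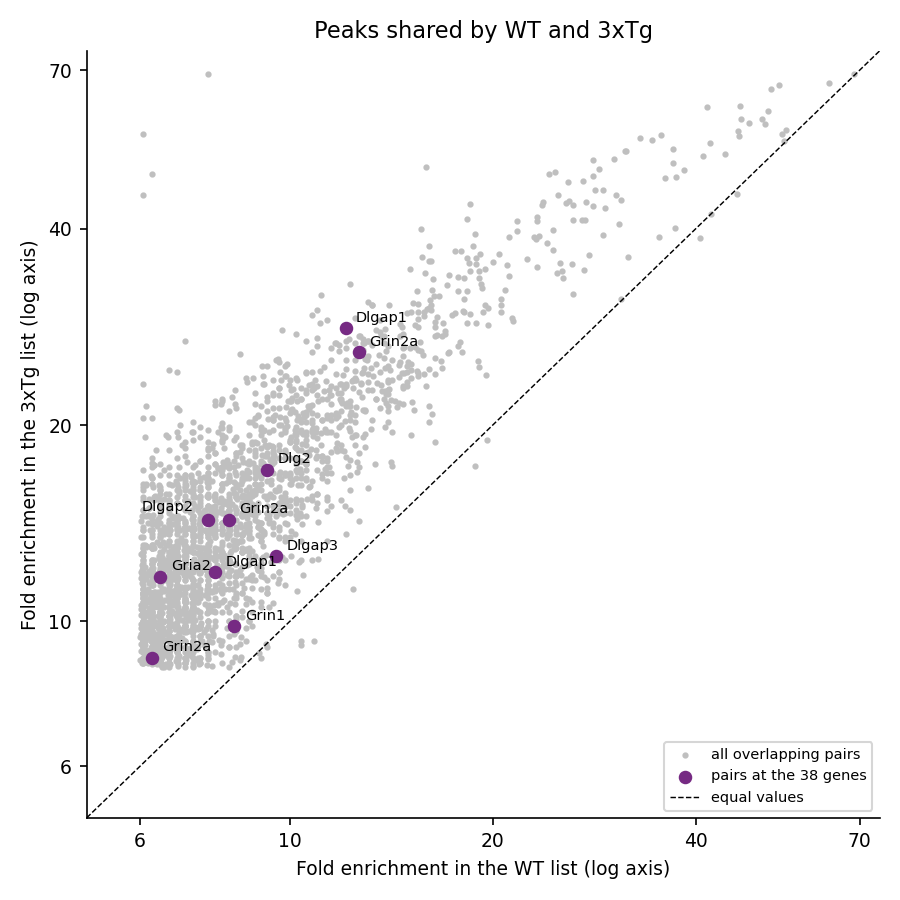
Fold enrichment in the WT list (x axis) against the 3xTg list (y axis), both on log axes, for all 2504 overlapping peak pairs (grey) and the 10 pairs at glutamate receptor and scaffold genes (purple, labelled). The dashed line marks equal values. All 10 pairs lie above it, as do 99.5% of all pairs, with Grin1 nearest to the line at 1.19 times and the upper Dlgap1 pair farthest from it at 2.32 times.

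Because of this difference in scale, the position of a peak within its own list was also taken, as the percentage of the list at or above it. The lists differ in length, and over all 2504 pairs the 3xTg position was nearer the top by a median of 8.42 percentile points, so these positions describe the lists and show no change at a peak. The 10 pairs of the set had a median of 6.95 points. The largest differences towards the top in 3xTg were those of Gria2, at 75.8% in WT and 41.3% in 3xTg, and Dlgap2, at 43.9% and 23.4%. The largest in the other direction were those of Grin1, at 34% and 64.5%, and Dlgap3, at 22.5% and 33.3%. Of the 10 pairs 7 were nearer the top in 3xTg, as were 1934 of all 2504 pairs. In the whole 3xTg list the 2588 3xTg-only peaks had a median fold enrichment of 9.67, against 13.8 for the shared ones, so that the added peaks of this list stood mostly below the shared ones.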

How the data were processed

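REST ChIP-seq libraries from mouse cortex (8 libraries and 2 inputs) were aligned by the authors to mm10 with STAR (2.7.0a; the labels of 6 samples name BWA instead), and peaks were called with MACS without model building. Per the methods, peaks passed a fold enrichment over 5 and q under 0.01, and peaks on the ENCODE blacklist were removed. The 2 deposited lists each combine 4 replicates and give per peak a score, a fold enrichment over local background (a ratio), the −log10 q-value, and the summit offset. The score served only to rank 3xTg peaks in 1 alternative, and the p-value column was not used. Read depth is not in the deposited lists, so its precision is unknown.

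Chromosome Y was not used (4 peaks in WT, 9 in 3xTg). Peaks were joined to curated RefSeq transcripts (NM and NR) of GRCm38.p6, which is mm10. Shared peaks overlap by at least 1 base. Coordinates are counted from 1. RE1 sites were searched on both strands by Python 3.11.15 with numpy 2.4.6 and pysam 0.24.0. The half-sites were read from a motif logo of the study. Figures were drawn with matplotlib 3.10.9. The search, the assignment and the self-match were tested on simulated data.

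Named with values were peaks within 1 kb of a start site, peaks with an RE1 site, the 5 highest of each list, every WT-only peak, the 3 highest 3xTg-only peaks, the 2 shared peaks that gained and the 2 that lost most in rank percentile, and the 3 genes with most peaks. Other single peaks were named to account for every gene. Genes, lists and tests were chosen with earlier results of these data known. With pooled lists there was no test. The closing section gives the alternatives.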

Additional observations from a re-analysis of the deposited data

How the results depend on the processing

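Fold enrichment over 10 in both lists left 2 genes with a WT peak, 7 with a 3xTg peak and 2 with both (5.26%, 18.4% and 5.26%, beside 1.9%, 9.38% and 1.89% of all genes), 2 shared peaks in either list and 0 WT-only peaks; 16 3xTg-only peaks were then counted, some because their WT partner fell below 10. With the 3006 3xTg peaks of highest score, 8 genes (21.1%, beside 9.07% of all genes) had a 3xTg peak and 7 peaks were 3xTg-only, against 15 and 23. Start site distance alone left 4 (WT), 6 (3xTg) and 3 (both) genes at 5 kb, beside 6.7%, 9.84% and 5.22% of all genes, and 3, 6 and 3 at 1 kb, beside 5.31%, 7.81% and 3.96%. An overlap of 50% of both peaks gave 5 shared peaks in either list and 8 WT-only peaks, by construction. With 3 mismatches 9 3xTg peaks held an RE1 site, and exact half-sites 0 to 20 bases apart were found in 1 WT and 2 3xTg peaks. The other 43 of 63 values stayed within 1.5 times. Among them were those for q under 1e-05, summits, predicted transcripts, chromosome Y and a margin of 1 kb chosen after seeing the data. The q limit could change nothing, because the lowest −log10 q was 13.3 in WT and 29.0 in 3xTg. Neither chromosome Y, where no gene of the set lies, nor a protein-coding background could change the counts of the set. GENCODE start sites, also chosen later, put 4 WT and 9 3xTg summits within 1 kb of a start, against 3 and 6. Of protein-coding genes alone 10.3% had a WT peak and 15.7% a 3xTg peak.

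No paired analysis was possible because each deposited list combines the 4 replicates of a genotype. For the same reason no replicate was left out in turn, and a peak listed in 1 genotype alone is not shown to differ between genotypes. Depth is not given in the lists, so the limit it sets was not measured.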

Other observations

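Other genes of the glutamate synapse (auxiliary subunits, adhesion proteins, transporters) also held peaks. Of 33 such genes 9 (27.3%) had a WT peak and 7 (21.2%) a 3xTg peak, and 24 had neither, beside 9.27% and 14.2% of all genes. The 14 of them that reach 100 kb stood at 4 (28.6%) and 3 (21.4%), beside 24.9% and 39.2% of all genes of that length. The 19 shorter ones stood at 5 (26.3%) and 4 (21.1%), beside 7.66% and 11.6%. This background of shorter genes includes 11248 genes under 10 kb, of which 5.35% had a WT peak and 7.98% a 3xTg peak. The highest values were those of Grip1, which encodes a protein that binds AMPA receptors, with a fold enrichment of 28.2 in WT and 48.1 in 3xTg and with 3 further 3xTg-only peaks. Cnih3, an auxiliary subunit gene of AMPA receptors, had 8.54 in WT and 17.6 in 3xTg. Of the 5 glutamate transporter genes, those of the glial transporters, Slc1a2 and Slc1a3, had peaks in each list, at most 9.08 and 9.13 in WT and 13.3 and 13.7 in 3xTg. Of the 7 adhesion genes Lrrtm1 and Lrrtm2 were called in both lists and Nlgn2 in WT alone. Gsg1l was called in WT alone, at 7.39. None of the peaks of these 33 genes held an RE1 site.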
